A study of Mus musculus with 2 samples.

Results

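The genes described here are 57 mouse transcription factor and coactivator genes that direct the formation of organs and tissues, mostly other than blood, outside the Hox clusters, grouped by family (GATA, PAX, SOX, LHX and ISL, SIX-EYA, TBX, FOX, basic helix-loop-helix and several homeodomain groups). They were chosen by name, and all probe sets that carry 1 of these symbols alone were taken. Of the 57 genes, 56 were represented, by 109 of the 45037 probe sets on the array, and Pax2 was not analysed here for want of a probe set that carries its symbol. The comparison is between 2 one-colour Affymetrix arrays of lineage-marker-negative C57BL/6J thymocytes, 1 titled TKO and 1 titled DKO, called here the TKO-labelled and DKO-labelled arrays. By the series' design text the TKO cells are LckCre(+) and the DKO cells LckCre(-), and both carry Cdkn2a-/-, Ring1A-/- and Ring1Bfl/fl. Lck-Cre is a recombinase made in T-lineage cells, so by that text floxed Ring1B meets it in TKO cells. The samples' genotype field words this differently, with loss of Ring1A, Ring1B and Cdkn2a in TKO and of Ring1A and Ring1B in DKO. The cells had been held in standard medium, and neither age, sex nor the number of mice behind an array is given.

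Developmental transcription factors of these families bind DNA in embryonic fields such as neural tube, limb bud, heart and gut, and each tissue keeps most of them silent later on. Polycomb repressive complexes are known for that silencing: complex 1, whose RING1 and RNF2 (Ring1B) subunits place ubiquitin on histone H2A, and complex 2, which methylates histone H3, occupy CpG-rich promoters of such genes in many cell types. T-cell precursors use a few relatives of these genes as lineage regulators, among them Gata3.

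With 1 array per label there is no replicate spread to set a difference against, so no p-value is given and every difference below describes these 2 hybridisations. Signals are given relative to the median of all probe sets on the same array, so that 1 is the median, and a gene stands for its brightest probe set. The array median served as a floor: a gene at or above it on at least 1 array is called measured, signals below it were raised to it, and a gene measured on 1 array alone has only a bound. Genes that differed by at least 2-fold are called higher or lower. The 8 T-cell markers on the array of the 10 listed were all measured, with summed relative signals of 764 on the TKO-labelled and 1163 on the DKO-labelled array. Among the genes named in the genotypes, Cdkn2a was at 0.257 on the TKO-labelled array and 9.87 on the DKO-labelled array, Rnf2 at 61.1 on the TKO-labelled and 60.3 on the DKO-labelled array, and Ring1 at 2.05 on the TKO-labelled and 1.93 on the DKO-labelled array. Cdkn2a signal on the array labelled DKO is at odds with the design text, but not with the samples' genotype field, which lists loss of Cdkn2a for TKO alone. Ring1 (Ring1A) and Rnf2 (Ring1B) were measured on both arrays, although that field lists loss of both genes under either label. By the design text, Ring1A is lost in both and floxed Ring1B meets Cre in TKO cells. Which wording is right was not tested, so the labels may differ in Cdkn2a, in Ring1B or in both. The sources used here do not place these probe sets relative to the deleted segments. The arrays also differed in sex-linked RNA: Xist stood at 230.0 on the TKO-labelled and 1.81 on the DKO-labelled array, and the Y-linked Eif2s3y at 0.771 on the TKO-labelled and 24.9 on the DKO-labelled array, so a difference of sex coincides with the label.

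Most of these developmental regulators were dim on both arrays. Of 56 genes, 11 were measured on at least 1 array (19.6%), against 62% of all 18193 genes, and 45 lay below the floor on both. The median relative signal of the 56 genes was 0.413 on the TKO-labelled array and 0.341 on the DKO-labelled array, while all genes had medians of 2.31 on the TKO-labelled and 2.20 on the DKO-labelled array. Of the 11 measured genes, 3 were at or above the floor on both arrays, 4 on the TKO-labelled array alone and 4 on the DKO-labelled array alone. Of the 11280 measured genes of the whole array, 10316 were so on both arrays, 523 on the TKO-labelled array alone and 441 on the DKO-labelled array alone. As shares of all 18193 genes, measured or not, these were 56.7%, 2.87% and 2.42%. The count per probe set was alike, with 13 of 109 at or above the floor (11.9%, against 58.4% of all probe sets with 1 symbol). Signals over 5 times the array median were seen for 2 genes, Lhx2 and Eya1, on the TKO-labelled array and 0 on the DKO-labelled array. By the higher of the 2 signals, 3.57% of the 56 genes reached 5 times the median, against 42.2% of all genes. A relative signal under 1 is not a proof of absence, since MAS5 signals of absent transcripts are above 0 and detection calls were not used here.

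By the 2-fold rule, Eya1 and Lhx2 were higher on the TKO-labelled array and 0 of the genes were lower. Because signals below 1 were raised to 1, a gene whose brighter signal lay under 2 could not be called either way. In that range, 0 of the 1625 measured genes of the array were called. The 2 higher genes are 3.57% of the 56, against 1.98% higher and 0.418% lower among all 18193 genes. They are 18.2% of the 11 measured genes, against 3.2% higher and 0.674% lower among the 11280 measured genes of the array. These shares rest on 2 genes, without replicates, and nothing is read from them about the group as a whole. Counted by probe set, 3 were at least 2-fold higher, 1 of Lhx2 and 2 of Eya1, and 0 lower. They are 2.75% of the 109 probe sets, against 1.54% higher and 0.375% lower among all 34945 probe sets with 1 symbol, and 23.1% of the 13 measured ones, against 2.63% higher and 0.642% lower among the measured probe sets of the array. The count moved with the floor. Set at the 25th percentile of each array's signals, it left 43 genes measured, 5 higher and 3 lower, against 5.33% higher and 3.28% lower among all genes measured that way. Set at the 75th percentile it left 2 genes measured, of which Lhx2 was higher and 0 were lower, against 1.79% higher and 0.236% lower. Of the other 9 measured genes, Foxl2 had a ratio of 2 measured signals, and the other 8 had only log2 bounds, between -0.19 and 0.63. The brighter signal of these 8 was at most 1.55 times the array median, too low for the rule to call them higher or lower.

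**Figure D1:**
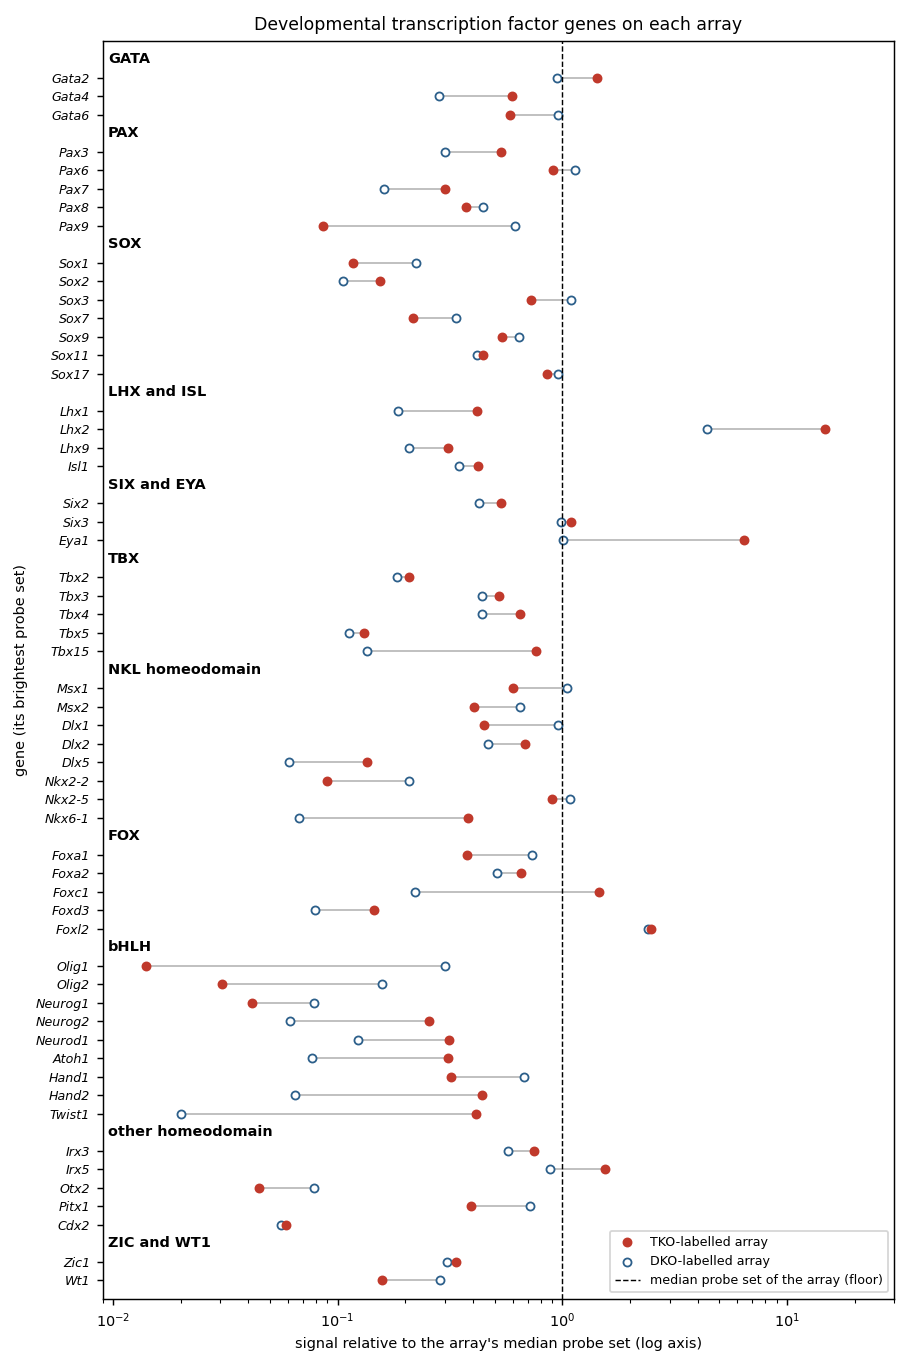
Signal of the brightest probe set of each of 56 developmental transcription factor genes, relative to the array's median probe set (log axis), grouped by family; filled points are the TKO-labelled array, open points the DKO-labelled array, and the dashed line is the median. Lhx2 (14.8 TKO-labelled, 4.40 DKO-labelled) and Eya1 (6.45 TKO-labelled, 1.003 DKO-labelled) reach furthest to the right on the TKO-labelled array, and 45 genes have both points left of the line, where the distance between points has no reading.

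Lhx2, a LIM homeodomain factor needed in mice for the eye, the forebrain and fetal liver blood formation, was the brightest of the genes on both arrays. Its only probe set had a relative signal of 14.8 on the TKO-labelled array and 4.40 on the DKO-labelled array. It stood at percentile 85.4 of the TKO-labelled array, with a deposited signal of 1060, and at percentile 71.0 of the DKO-labelled array, with 303. Lhx2 was thus measured on both arrays and 3.36-fold higher on the TKO-labelled array (log2 ratio 1.75), rank 73 among the 283 genes that were measured on both arrays and at least 2-fold higher. Among the 2124 measured genes whose brighter signal lay between 10 and 20 times the median, 3.53% were at least 2-fold higher, and the central 90% of log2 ratios ran from -0.51 to 0.75. In bulk RNA of this kind, more cells of a type and more RNA per cell cannot be told apart.

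Eya1, a coactivator and phosphatase that works with Six-family factors and is needed in mice to form the ear, kidney and thymus, had the largest ratio among the 3 genes of the group measured on both arrays. The brightest of its 3 probe sets had a relative signal of 6.45 on the TKO-labelled array and 1.003 on the DKO-labelled array, 6.43-fold higher (log2 ratio 2.69), rank 12 among those 283 genes. Foxc1, known only by a bound, cannot be ranked against it. On the DKO-labelled array Eya1 stood at the floor itself, with a deposited signal of 69.0 against a median of 68.8. A second probe set gave 2.01 on the TKO-labelled array and, under the floor, 0.517 on the DKO-labelled array, at least 2.01-fold higher. The third was below the floor on both, at 0.376 on the TKO-labelled and 0.320 on the DKO-labelled array. The ratio therefore differed by probe set, and the mean over all 3 was a log2 ratio of 1.23. Under the 75th-percentile floor, at 6.01 on the TKO-labelled and 6.05 on the DKO-labelled array, Eya1 had only a log2 bound of 0.09. Its signal of 6.45 was too close to that floor for a 2-fold call. Lhx2 was at least 2-fold higher there, with a log2 bound of 1.29.

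**Figure D2:**
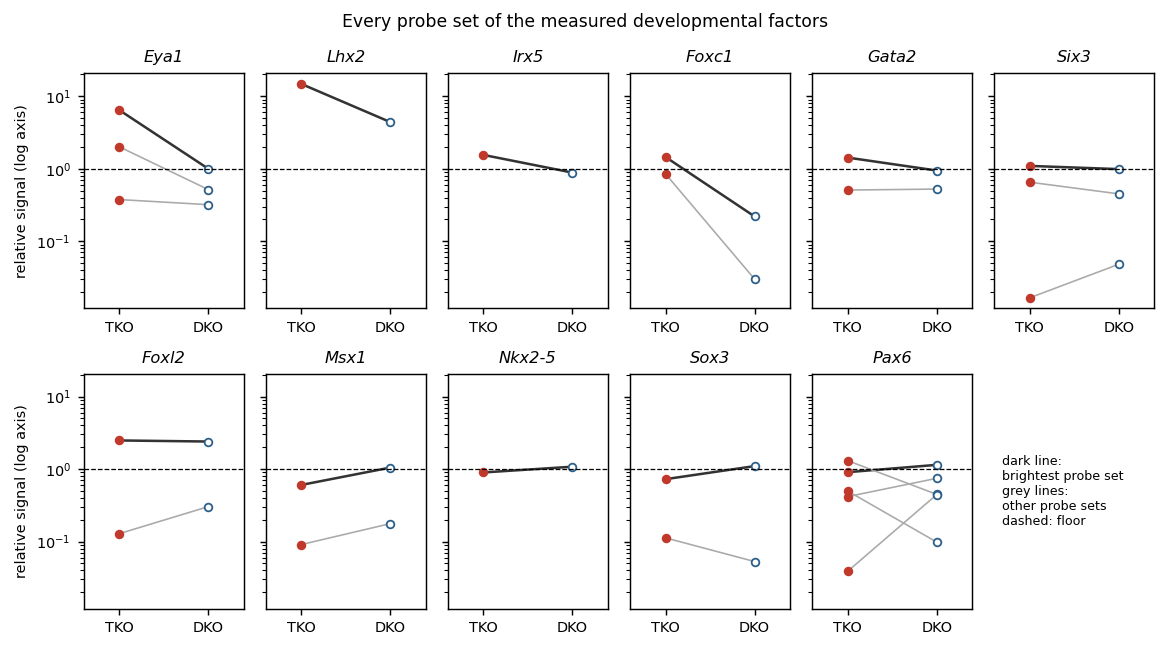
Relative signal (log axis) of every probe set of the 11 measured genes, TKO-labelled array at the left of each panel and DKO-labelled array at the right, with a dark line for the brightest probe set, grey lines for the others and a dashed line at the array median. The line drops towards the DKO-labelled array for Lhx2 and for 2 probe sets of Eya1. It also drops, to below the dashed line, for the brightest probe sets of Irx5, Foxc1, Gata2 and Six3. The lines of the 5 Pax6 probe sets cross.

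Foxl2, a forkhead factor of ovarian granulosa cells and eyelid, was the third gene measured on both arrays. Its relative signal was 2.48 on the TKO-labelled array and 2.39 on the DKO-labelled array (log2 ratio 0.05), and a second probe set was below the floor on both. The arrays thus read Foxl2 nearly alike.

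The genes measured on the TKO-labelled array alone were Irx5, Foxc1, Gata2 and Six3, and with signals under 2 none of their bounds could reach 2-fold. Irx5, an Iroquois homeodomain factor of heart and retina, had 1.55 on the TKO-labelled array and 0.884 on the DKO-labelled array, so that its log2 ratio was at least 0.63. Foxc1, a forkhead factor of mesenchyme and the anterior eye, had 1.45 on the TKO-labelled array and 0.220 on the DKO-labelled array (log2 bound 0.54). Its second probe set gave 0.848 on the TKO-labelled and 0.0301 on the DKO-labelled array, both below the floor. That bound depended on where the floor stood, and with the 25th percentile as floor it was 2.31. Gata2, a zinc-finger factor of blood stem cells and mast cells, had 1.42 on the TKO-labelled array and 0.945 on the DKO-labelled array (log2 bound 0.51), and its other probe set read 0.508 on the TKO-labelled and 0.524 on the DKO-labelled array. Of 8 mast cell markers on the array, 4 were measured, 0 were higher and 1, Cma1, was lower, and the summed signals of the 8 were 23.3 on the TKO-labelled and 39.2 on the DKO-labelled array. Six3, a homeodomain factor of forebrain and eye, lay just inside the floor at 1.09 on the TKO-labelled array and just outside at 0.988 on the DKO-labelled array.

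Pax6, Sox3, Nkx2-5 and Msx1 were measured on the DKO-labelled array alone, each close to the floor there. Pax6, a paired-box factor of eye, brain and pancreatic islets, had 0.905 on the TKO-labelled array and 1.14 on the DKO-labelled array, while another of its 5 probe sets had 1.30 on the TKO-labelled and 0.448 on the DKO-labelled array and so went the other way. Sox3, an X-linked HMG-box factor of neural progenitors, had 0.725 on the TKO-labelled and 1.10 on the DKO-labelled array. Nkx2-5, a homeodomain factor of the heart, had 0.897 on the TKO-labelled and 1.08 on the DKO-labelled array. Msx1, a homeodomain factor of teeth and palate, had 0.603 on the TKO-labelled and 1.05 on the DKO-labelled array. The 4 bounds ran from -0.19 to -0.07 on the log2 scale, and their size is set by the floor. With the 25th percentile as floor, the log2 ratio was -0.80 for Msx1, -0.60 for Sox3, -0.34 for Pax6 and -0.26 for Nkx2-5. Setting the median ratio to 0, a shift made after the floor, moved the Msx1 bound to 0.03, which is no ratio of opposite sign. Pax6 had 0.04 as a mean over its probe sets, so its sign depended on the probe sets used.

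By family, measured genes were spread thinly. SIX-EYA had 2 of 3 genes measured, FOX 2 of 5, the NKL homeodomain group (Msx, Dlx and Nkx) 2 of 8, and GATA, PAX, SOX, LHX and ISL, and the other homeodomain group 1 each, of 3, 5, 7, 4 and 5 genes. The T-box family had 0 of 5, the basic helix-loop-helix genes 0 of 9, and Zic1 and Wt1 were both unmeasured. The basic helix-loop-helix group, which holds the neural determinants Neurog1, Neurog2, Neurod1, Atoh1, Olig1 and Olig2 and the heart and mesoderm factors Hand1, Hand2 and Twist1, ranged from 0.0140 to 0.438 on the TKO-labelled array and from 0.0201 to 0.676 on the DKO-labelled array. In the T-box family, known for limb and heart patterning, Tbx15 was highest on the TKO-labelled array at 0.764 and Tbx4 on the DKO-labelled array at 0.439. The SOX genes, which include the stem-cell factor Sox2 and the endoderm and endothelial factors Sox7 and Sox17, had medians of 0.445 on the TKO-labelled and 0.416 on the DKO-labelled array. The endoderm factors Gata4 and Gata6 were below the floor on both arrays, as were Foxa1 and Foxa2. Closest to the floor from below were Sox17 (0.857 TKO-labelled, 0.957 DKO-labelled), Gata6 (0.587 TKO-labelled, 0.955 DKO-labelled) and Dlx1 (0.448 TKO-labelled, 0.955 DKO-labelled). Ranked by the higher of its 2 signals, the dimmest gene was Cdx2, the intestinal and trophectoderm factor, which had 0.0588 on the TKO-labelled array and 0.0560 on the DKO-labelled array. The remaining unmeasured genes had a higher signal between these limits, and the 2 arrays cannot be ranked against each other below the floor.

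Other genes of the same families included several that thymocytes are known to use. Of 115 such genes on the arrays, 35 were measured (30.4%, against 19.6% of the 56), 3 were at least 2-fold higher and 0 lower. The 3 are 2.61% of the 115, against 1.98% higher and 0.418% lower among all genes. Among them were the thymocyte regulators Sox4, with 178 on the TKO-labelled array and 217 on the DKO-labelled array, and Gata3, with 19.1 on the TKO-labelled and 24.4 on the DKO-labelled array, and neither was 2-fold different. In the FOX family, 15 of 32 were measured, among them Foxp1 at 54.4 on the TKO-labelled and 45.4 on the DKO-labelled array. The basic helix-loop-helix genes of this second list were unmeasured too, 0 of 19. The 3 higher genes were Foxf2, Pax5 and Zic5. Foxf2, a forkhead factor of mesenchyme, had 7.11 on the TKO-labelled array and 0.631 on the DKO-labelled array, at least 7.11-fold higher, and its second probe set fell short of the floor on both. Pax5, the B-cell commitment factor, had 4.17 on the TKO-labelled and 1.08 on the DKO-labelled array (3.87-fold higher). Zic5, a zinc-finger factor of neural crest, had 3.89 on the TKO-labelled and 1.84 on the DKO-labelled array (2.11-fold higher). Another probe set of Zic5 gave a log2 ratio of 0.79, and another of Pax5 a log2 bound of 0.18.

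**Figure D3:**
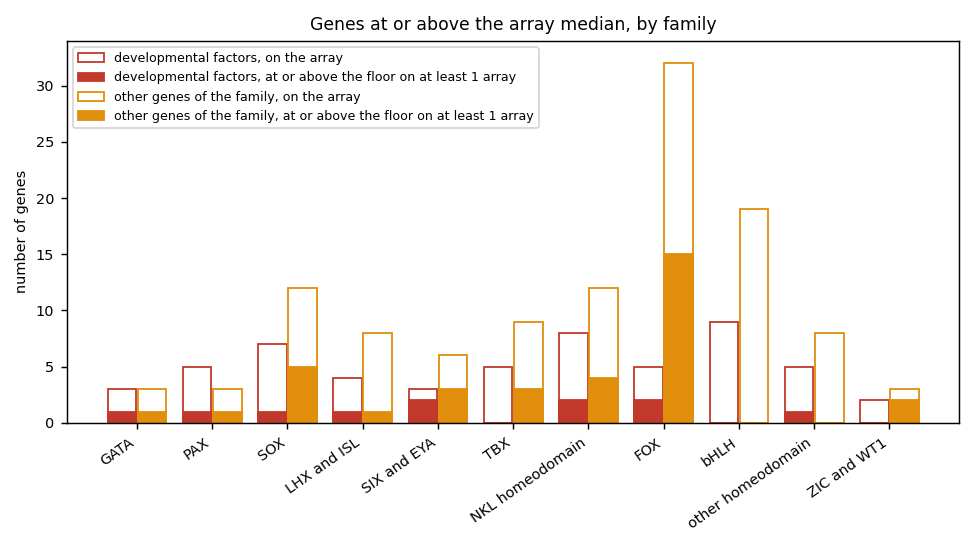
Number of genes per family on the array (open bars) and at or above the array median on at least 1 array (filled bars), red for the 56 developmental factors and orange for the other genes of the same families. The bHLH bars hold no filled part, and the tallest filled bar is that of the 15 other FOX genes.

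Developmental factors of other families were mostly below the floor too. Of 62 on the arrays, 9 were measured (14.5%), 2 were at least 2-fold higher (3.23%, against 1.98% of all genes) and 0 lower (against 0.418%). The 2 were the neural POU factor Pou3f3, with 15.7 on the TKO-labelled array and 0.0852 on the DKO-labelled array, at least 15.7-fold higher, and the neuroendocrine zinc-finger factor Insm1, with 8.17 on the TKO-labelled and 0.346 on the DKO-labelled array, at least 8.17-fold higher. A second Insm1 probe set was at least 4.35-fold higher, and a second Pou3f3 probe set was below the floor on both arrays. Emx2, a homeodomain factor of forebrain and kidney, was measured on both arrays, at 7.05 on the TKO-labelled and 7.95 on the DKO-labelled array. Polycomb subunits, by contrast, were all measured. None of the 28 on the arrays was 2-fold higher or lower, and their median log2 ratio was -0.17. Their brightest subunit, Rbbp7, had 261 on the TKO-labelled and 303 on the DKO-labelled array.

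**Figure D4:**
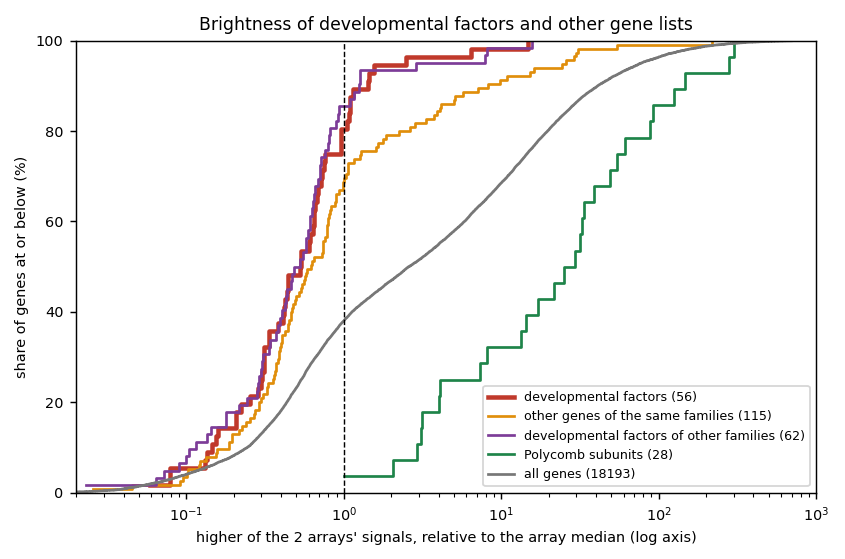
Cumulative share of genes (percent) by the higher of their 2 relative signals (log axis) for the 56 developmental factors, the 115 other genes of their families, 62 developmental factors of other families, 28 Polycomb subunits and all 18193 genes, with the array median dashed. Left of the dashed line lie 45 of the 56 developmental factors and 6913 of all 18193 genes.

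Among markers of other cells, those of B cells differed between the labels as a set. The part of any other cell type in the Lhx2 and Eya1 differences was not tested. All 8 B-cell markers on the array, of 9 listed, were at least 2-fold higher, with summed relative signals of 367 on the TKO-labelled array and 100.4 on the DKO-labelled array, and none was below the floor. Of 9 myeloid markers 8 were measured, 2 higher and 2 lower, with sums of 63.5 on the TKO-labelled and 59.5 on the DKO-labelled array. These near-equal sums hide differences both ways. Higher were Lyz2 (29.7 TKO-labelled, 12.4 DKO-labelled) and Csf1r (11.2 TKO-labelled, 3.62 DKO-labelled). Lower were Ngp (1.95 TKO-labelled, 5.93 DKO-labelled) and S100a9 (5.36 TKO-labelled, 12.5 DKO-labelled). Thymic epithelial markers summed to 28.1 on the TKO-labelled array and 31.5 on the DKO-labelled array, with 6 of 11 measured. The brightest were Epcam (9.59 TKO-labelled, 11.9 DKO-labelled), Ly75 (6.80 TKO-labelled, 7.88 DKO-labelled) and Krt18 (4.70 TKO-labelled, 5.31 DKO-labelled). The defining Foxn1, Psmb11 and Aire were below the floor on both. Of 7 mesenchymal markers 2 were measured, both on the TKO-labelled array alone with signals too low for a 2-fold bound. They were Col3a1 (1.63 TKO-labelled, 0.828 DKO-labelled) and Dcn (1.23 TKO-labelled, 0.758 DKO-labelled). The 7 had sums of 5.26 on the TKO-labelled and 3.02 on the DKO-labelled array, and Pdgfra and Col1a1 were below the floor on both arrays. Of 8 endothelial markers 3 were measured, 0 higher and 0 lower, with sums of 10.8 on the TKO-labelled and 11.6 on the DKO-labelled array. The brightest were Pecam1 (4.51 TKO-labelled, 3.65 DKO-labelled) and Egfl7 (3.32 TKO-labelled, 4.54 DKO-labelled), while Cdh5, Kdr and Tek were below the floor on both. Erythroid markers were measured for 1 of 5, with sums of 2.48 on the TKO-labelled and 2.60 on the DKO-labelled array. No listed marker had a signal of exactly 0.

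The promoters of these genes were CpG-rich, a property the choice of genes did not use. RefSeq start-site windows on GRCm38.p6, from 250 bases before to 50 after the start, were at hand for 39 of the 57 genes, and for genes with several starts the window with the most CpG was counted. The observed number of CpG over that expected from base composition had a median of 0.815 in the 39 genes, against 0.413 in all 27025 genes with a window. A ratio of 0.6 or more was found in 33 of the 39 (84.6%). It was found in 77.0% of the 9165 genes measured on at least 1 array and in 30.1% of the 5287 genes below the floor on both. The 30 developmental factors that were themselves below the floor on both arrays had a median of 0.818, beside 0.796 in the measured genes of the whole array and 0.378 in the unmeasured ones. The letters TATAAA, searched on both strands, were in the windows of 3 of the 39 genes (7.69%) and of 13.7% of all genes. Shares were 6.5% in the measured genes of the array, 14.3% in the unmeasured ones and 10% in the 30 unmeasured developmental factors. These genes were picked by family, and no test was made.

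The windows below, with every CpG in capitals, show this for Lhx2 (higher on the TKO-labelled array, with 2 starts), Foxl2 (read alike on both arrays) and Cdx2 (the dimmest gene with a window). The sequences are from RefSeq, GRCm38.p6, each 300 bases, 5′ to 3′ on the strand of the gene. Eya1 is not among the windows. The first Lhx2 window lies at chr2:38339031-38339330 on the plus strand and holds 34 CpG, and the second at chr2:38351058-38351357 on the plus strand holds 29. The Foxl2 window, chr9:98955357-98955656 on the plus strand, holds 27 CpG. The Cdx2 window, chr5:147307200-147307499 on the minus strand, holds 18.
Lhx2 first start: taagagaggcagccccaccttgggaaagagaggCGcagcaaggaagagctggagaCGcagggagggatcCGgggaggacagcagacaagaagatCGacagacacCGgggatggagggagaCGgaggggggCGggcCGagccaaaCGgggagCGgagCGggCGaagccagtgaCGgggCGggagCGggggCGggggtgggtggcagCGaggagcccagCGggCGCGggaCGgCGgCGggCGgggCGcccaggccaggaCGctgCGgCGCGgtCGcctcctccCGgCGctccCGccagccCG
Lhx2 second start: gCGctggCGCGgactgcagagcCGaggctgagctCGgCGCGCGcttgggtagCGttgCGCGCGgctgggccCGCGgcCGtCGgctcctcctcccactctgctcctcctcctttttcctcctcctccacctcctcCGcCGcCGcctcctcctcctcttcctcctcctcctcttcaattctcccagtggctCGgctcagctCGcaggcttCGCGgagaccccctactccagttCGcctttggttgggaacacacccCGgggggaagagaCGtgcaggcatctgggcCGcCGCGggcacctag
Foxl2: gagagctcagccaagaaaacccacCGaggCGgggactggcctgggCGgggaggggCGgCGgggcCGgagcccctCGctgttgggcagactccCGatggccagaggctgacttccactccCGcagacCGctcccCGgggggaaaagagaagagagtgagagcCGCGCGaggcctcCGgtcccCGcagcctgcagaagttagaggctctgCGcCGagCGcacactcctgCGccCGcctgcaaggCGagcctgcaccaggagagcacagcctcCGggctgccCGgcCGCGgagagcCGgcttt
Cdx2: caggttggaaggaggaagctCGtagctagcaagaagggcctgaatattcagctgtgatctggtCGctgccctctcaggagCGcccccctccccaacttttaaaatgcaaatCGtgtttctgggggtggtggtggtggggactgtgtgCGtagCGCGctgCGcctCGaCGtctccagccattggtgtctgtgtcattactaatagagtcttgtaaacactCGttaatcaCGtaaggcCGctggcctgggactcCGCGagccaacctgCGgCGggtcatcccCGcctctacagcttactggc
The CpG ratio of these windows was 0.885 and 0.835 for Lhx2, 0.708 for Foxl2 and 0.731 for Cdx2. The gene with no appreciable signal on either array thus had a window whose ratio was as high as that of Foxl2, and the letters say nothing of which factors bind there.

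**Figure D5:**
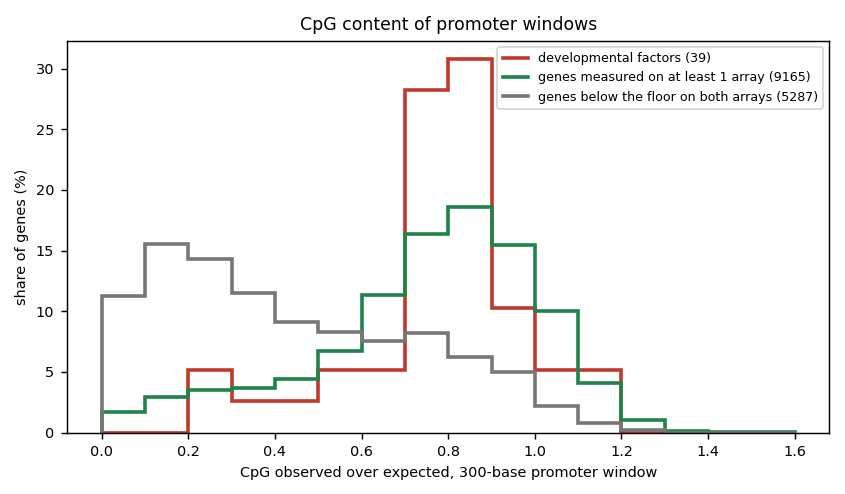
Share of genes (percent) by the ratio of observed to expected CpG in the 300-base promoter window, for 39 developmental factors (red), 9165 genes measured on at least 1 array (green) and 5287 genes below the floor on both arrays (grey); the red genes also belong to the other groups where they are on the array. The red and green outlines peak between 0.7 and 0.9, and the grey outline lies mostly below 0.6.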

How the data were processed

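Gene expression was measured on 2 one-colour Affymetrix arrays, 1 per label. The deposited values are intensity values, 1 per probe set on a linear scale, and MAS5 is named without a version in the submitters' processing notes. Whole-array scaling is part of MAS5, and the trimmed mean signal (2% off either end) was 497 on each array. Scanner files, detection calls and scan dates were not used here, and a batch cannot be told apart from the label. Arrays were grouped by their titles.

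Of 45037 probe sets, 34945 carried 1 gene symbol in the platform annotation, 932 several, and 9160 were not listed and stay unnamed. Symbols were updated by Entrez ID (99.4% matched to RefSeq, GRCm38.p6), and no member needed an older alias. Signals were divided by each array's median (71.8 TKO-labelled, 68.8 DKO-labelled), and values below 1 were raised to 1. A gene is represented by whichever of its probe sets had the highest mean log2 signal, and log2 ratios are TKO-labelled minus DKO-labelled. Dividing by the medians lowers each ratio by 0.06 (log2) against the deposited scale. The floor shrinks the ratios of dim genes. With 1 array per label no test was possible, and a fixed 2-fold rule was used. The number of arrays limits the precision. The size rule was tested on simulated data, but the outcome is not given here and does not stand in for replicate arrays. Work was done in Python 3.11.15 (pandas 2.3.3, numpy 2.4.6, statsmodels 0.14.6, scipy 1.17.1), with figures by matplotlib 3.10.9.

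The genes, lists and rules were chosen with earlier results of these data known. The rule for named genes took every member, with full values for those at or above the floor on at least 1 array; of the other lists it took the genes past 2-fold, up to 6 each way, and of the cell-type lists the counts and defining genes. Sox4, Gata3, Foxp1, Emx2 and Rbbp7 were named after their values were seen, as were the myeloid genes Lyz2, Csf1r, Ngp and S100a9. Alternatives were floors at the 25th and 75th percentiles, 4 other scalings, 3 other ways to stand for a gene, and size rules of 1.5-fold and 4-fold.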

Additional observations from a re-analysis of the deposited data

How the results depend on the processing

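The counts of developmental factors depended on the floor and the size rule, and were the same under the 4 other scalings run. With a floor at each array's 25th percentile, 43 developmental factors were measured, in 11 families, 5 were at least 2-fold higher and 3 lower; Lhx2 and Eya1 were joined above by Foxc1, Gata4 and Tbx15, and the lower ones were Dlx1, Hand1 and Pax9, all at low signals. With one at the 75th, 2 were measured, in 2 families, and 1, Lhx2, was higher. Under that floor Eya1 had a log2 bound of 0.09, and under the lower one Foxc1 had a log2 bound of 2.31. The other genes of the same families gave 5 higher and 6 lower with the 25th percentile and 0 higher with the 75th; the developmental factors of other families gave 4 higher and 5 lower, and 1 higher. At 4-fold, 1 developmental factor (Eya1) and 1 other gene of the families were higher, and 0 of either were lower. At 1.5-fold, 3 developmental factors (Irx5 beside Lhx2 and Eya1) were higher and 0 lower, and 4 other genes of the families were higher and 1 lower. Shares over all genes are not given for the 4-fold and 1.5-fold rules, so these counts cannot be set against the whole array. Counting every probe set by itself gave 3 members' probe sets higher, 1 of Lhx2 and 2 of Eya1. Lhx2 ran from a log2 bound of 1.29, under the 75th-percentile floor, to a log2 ratio of 1.84 and was past 2-fold under every floor, scaling and probe set choice run. Eya1 had the bound of 0.09 under the 75th-percentile floor, which lay too close to its signal for a 2-fold call. In the other settings with 1 value per gene, Eya1 ran from 1.23, as a mean over probe sets, to a log2 ratio of 2.78. The Msx1 bound, below 0 as reported, was moved to 0.03 by setting the median ratio to 0 after the floor. Pax6, also below 0 as reported, had 0.04 as a mean over probe sets. Differences of genes near the floor cannot be read at this signal over background. No paired analysis was possible because each label has 1 array.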
